A study of Arabidopsis thaliana with 4 samples.

Results

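The genes described here are 64 Arabidopsis thaliana genes that were at least 2-fold higher in apetala3 inflorescences than in wild-type inflorescences. They were chosen from the measured values. A gene was taken when its mean log2 ratio over 4 arrays was 1 or higher and its ratio was above 0 on every array. Of 5170 genes measured on all 4 arrays by a probe naming them alone, 72 met these thresholds (1.39%), and 8 of those were left out by symbol. The means, signs and folds of the 64 are therefore a description and carry no test.

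The MADS-box transcription factor APETALA3 acts with PISTILLATA to specify petals and stamens. In apetala3 mutants sepals form where petals should be and carpels form where stamens should be, so an inflorescence holds more carpel tissue and lacks pollen. Genes raised in such a comparison can therefore come from carpels, ovules, the female gametophyte or sepals. In whole inflorescences, more cells of a type and more RNA per cell cannot be told apart.

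Total RNA of apetala3 inflorescences and of wild-type inflorescences was hybridised together on each of 4 two-channel oligonucleotide arrays. The mutant RNA was in channel 1 on arrays 1 and 3 and in channel 2 on arrays 2 and 4. The allele, accession background, flower stage and growth conditions of the plants are not stated in the sources used here, nor is it said whether the arrays came from separate plants. P-values therefore cover no more than array-to-array variation, and this may be technical. The labels do not name the numerator of the deposited ratios, so the direction is called likely, on the basis of tapetum and pollen wall genes. With channel 2 taken as the numerator and the sign of arrays 1 and 3 turned, these were lower in apetala3 (median log2 ratio -2.93 over the 8 measured). Values below are log2 ratios in that direction, apetala3 over wild type, unless a fold is named. No signal intensities were used here, so the level of a gene in either genotype is not known.

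The arrays differed in their background. Over all empty spots that an array measured, 273, 170, 274 and 152 on arrays 1 to 4, the median was 0.76, 0.56, -0.27 and 0.84. Over the 113 empty spots measured on all 4 arrays it was 0.57, 0.46, 0.25 and 0.59, so the sign on array 3 depended on which spots were taken. Of these 113, 14 met the same thresholds as the raised genes (12.4%, 95% Clopper-Pearson interval 6.94 to 19.9). The interval covers counting error only. Among those measured on all 4 arrays, the thresholds alone were thus met by a larger share of empty spots than of genes, where the share was 1.39%. The 113 were a minority of the 424 empty spots, whereas 5170 of 5443 genes were measured on all 4 arrays. The 14 empty spots were uneven across arrays, with SDs of 0.34 to 2.48 and a median SD of 1.34. The 64 genes had a median SD of 0.41, and the other 5098 genes measured on all 4 arrays had 0.24. The part of this background in the values of single genes was not tested. The genes are described below in 3 groups by the value on their lowest array.

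**Figure D1:**
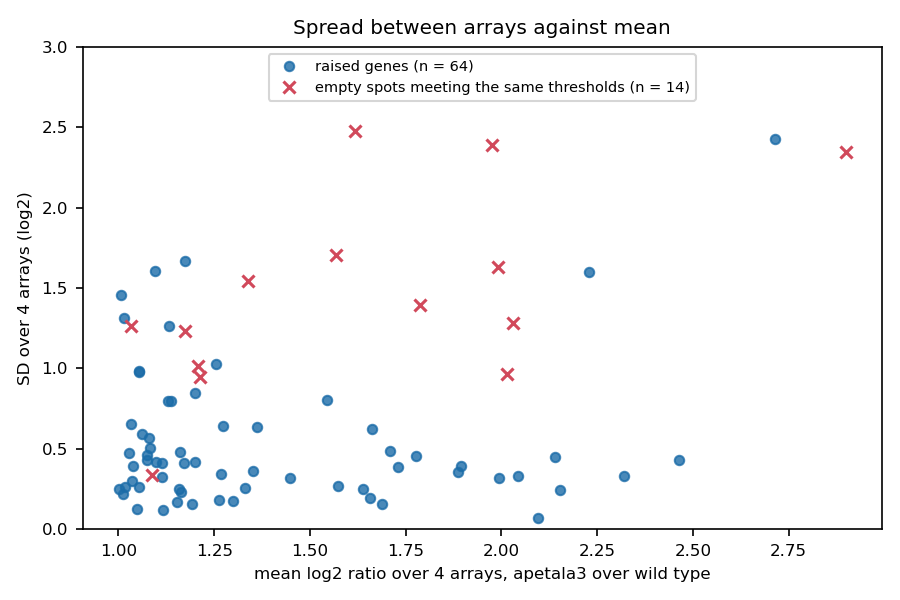
Each raised gene (circles, n = 64) and each empty spot that met the same thresholds (crosses, n = 14) is placed by its mean log2 ratio over 4 arrays (x axis) and the SD over those arrays (y axis, log2 units). Most genes lie below most crosses, with a median SD of 0.41 against 1.34, but 8 genes have an SD over 1.

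The 64 means ran from 1.0 to 2.71, with a median of 1.18 (2.27-fold), against a median of 0.14 for all 5170 genes. At 4-fold or more there were 8 genes, 12 lay between 1.5 and 2, and 44 lay between 1 and 1.5. Array 2 gave the highest value for 27 of the 64 (42.2%), against 28.6% of all 5170 genes. Array 3 gave the lowest for 26 (40.6%), while over all 5170 genes array 3 was the lowest for 26.8% and array 4 for 31.6%. The medians of the 64 were 1.32, 1.5, 1.1 and 1.29 on arrays 1 to 4. With each array centred on the median of its gene probes, 44 of the 64 still met the thresholds. With the median of each array's empty spots subtracted, 19 did, the same 19 for all empty spots of an array and for the 113. Each subtraction lowered all means by a fixed amount, much as a higher threshold would, so their agreement is not separate support. The 19 had the highest means of the 64, and uneven genes were among them, such as AT3G32130 (SD 2.42) and AT5G11570 (SD 1.60).

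**Figure D2:**
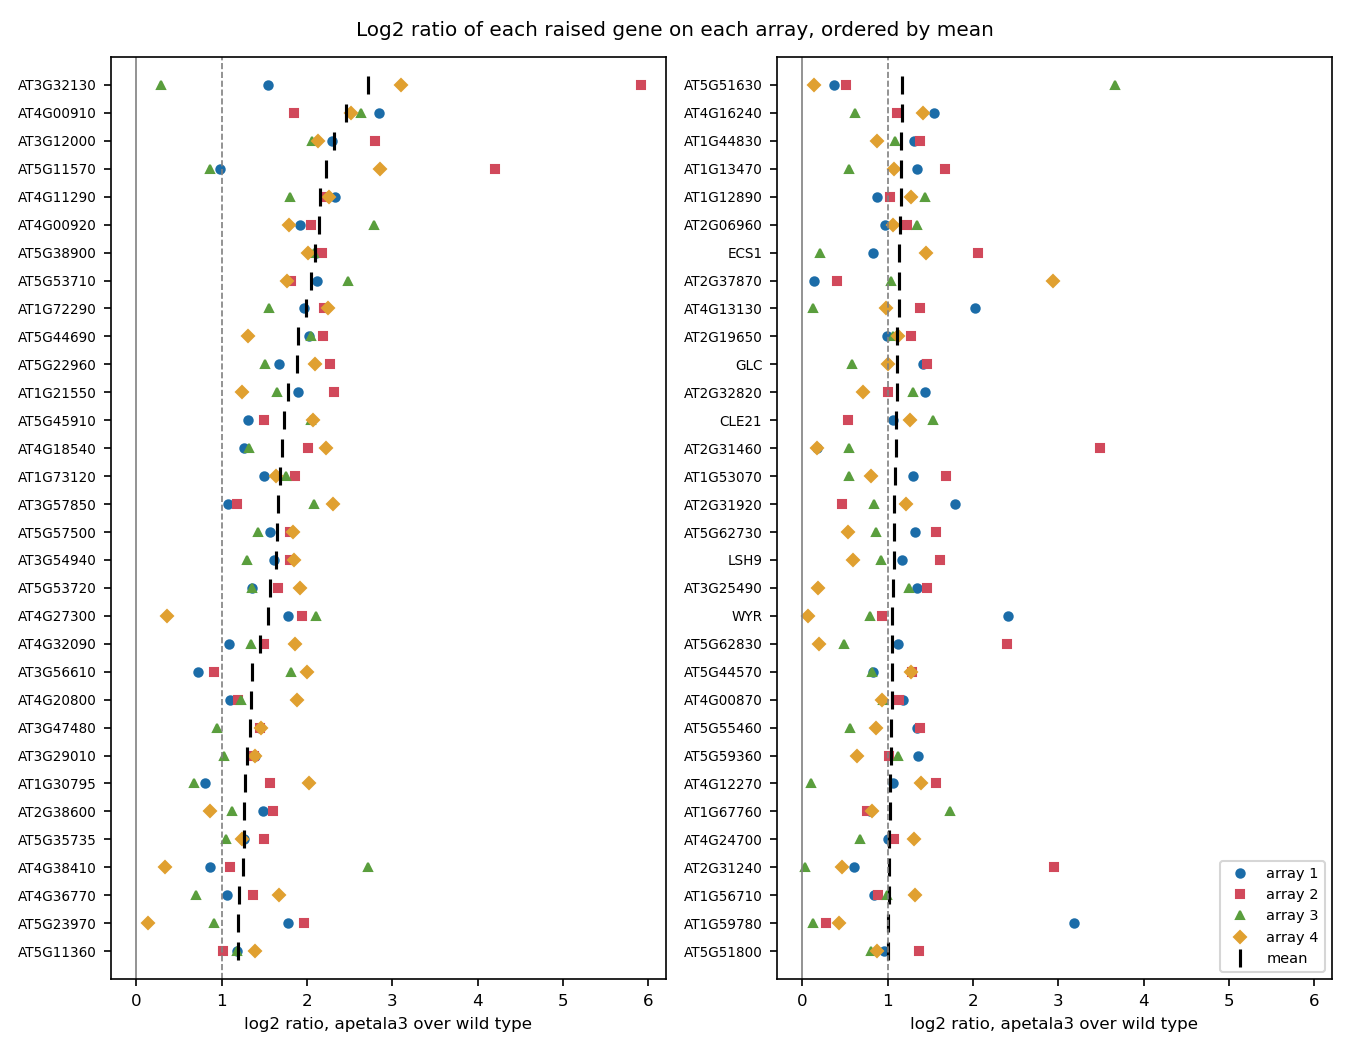
Log2 ratio of apetala3 over wild type (x axis) for each of the 64 raised genes (rows, ordered by mean), with 1 symbol per array and a black bar for the mean. The dashed line marks a log2 ratio of 1. Symbols of AT5G38900 nearly coincide, while AT3G32130, AT2G31460, AT5G51630 and AT1G59780 have 1 array far to the right.

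Only 5 of the 64 genes carry a symbol, and the reference table gives the other 59 a locus name alone. No role is given for those 59, beyond the listing of AT1G72290 with carpel genes below. GLC (GLAUCE, AT1G65450) encodes an acyltransferase of the BAHD family and is known from mutants of the female gametophyte. It had log2 ratios of 1.42, 1.46, 0.58 and 1.0 on arrays 1 to 4, a mean of 1.11 ± 0.41 (SD, n = 4 arrays). WYR (WYRD, AT5G55820), a homologue of the inner centromere protein INCENP that acts in cell fate of the female gametophyte, had values of 2.41, 0.94, 0.80 and 0.066. Its mean of 1.05 ± 0.98 (SD, n = 4 arrays) leaned on array 1, and without that array it was 0.60. CLE21, of the CLAVATA3/ESR-related family of small secreted signalling peptides, was at 1.06, 0.54, 1.53 and 1.26, with a mean of 1.1 ± 0.42 (SD, n = 4 arrays). LSH9, a nuclear protein of the family named after LIGHT SENSITIVE HYPOCOTYLS, was at 1.17, 1.61, 0.92 and 0.59, with a mean of 1.07 ± 0.43 (SD, n = 4 arrays). ECS1 encodes a cell wall protein, and its locus, rather than the gene itself, is linked to resistance against Xanthomonas. It had 0.83, 2.06, 0.21 and 1.45, with a mean of 1.14 ± 0.80 (SD, n = 4 arrays). Both higher values of ECS1 came from the arrays with the mutant in channel 2. None of these 5 genes was at least 2-fold higher on every array, and none still met the thresholds after either empty-spot median was subtracted.

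The group highest by its lowest array held 22 genes with a log2 ratio of at least 1 on each of the 4 arrays. Their means ran from 1.19 to 2.46, with a median of 1.72, and their SDs from 0.066 to 0.62. Over all 5170 genes 24 reached 1 on every array (0.464%), and of the 113 empty spots 2 did (1.77%). AT4G00910 was the highest of the 22, with log2 ratios of 2.84, 1.85, 2.64 and 2.52 on arrays 1 to 4 and a mean of 2.46 ± 0.43 (SD, n = 4 arrays), which is 5.52-fold. AT3G12000 had 2.29, 2.79, 2.06 and 2.13, a mean of 2.32 and a 5.00-fold difference. AT5G38900 was the most even of the 64, at 2.11, 2.18, 2.08 and 2.02, with an SD of 0.066 around a mean of 2.10. In all 3 genes the lowest array was at 1.85 or higher.

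AT4G11290 was the only one of the 64 with more than 1 probe naming it alone. Its first probe had log2 ratios of 1.89, 1.70, 1.53 and 1.39 and its second 2.76, 2.75, 2.07 and 3.14, so that both were at least 2-fold higher on every array. The probes differed in size, at means of 1.63 and 2.68, and their average was 2.15 ± 0.24 (SD, n = 4 arrays). The other 63 genes rest on 1 probe each.

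AT4G00920 was at 1.92, 2.05, 2.79 and 1.79, with a mean of 2.14 ± 0.45 (SD, n = 4 arrays). AT5G53710 had 2.12, 1.82, 2.48 and 1.76, with a mean of 2.04. For both of these genes array 3 was the highest. It was the highest for 9 of the 64 and the lowest for 26. AT1G72290 was at 1.97, 2.20, 1.55 and 2.25 (mean 1.99), and AT5G22960 at 1.67, 2.27, 1.51 and 2.09 (mean 1.89). In these 2 genes array 3 was the lowest, but it stayed above 1.5. AT5G44690 had 2.02, 2.19, 2.05 and 1.32 (mean 1.90), and AT1G21550 had 1.90, 2.32, 1.65 and 1.24 (mean 1.78), each with array 4 lowest. AT5G45910 had 1.31, 1.5, 2.05 and 2.07, with a mean of 1.73 and arrays 3 and 4 high. AT4G18540 had 1.27, 2.02, 1.32 and 2.23, with a mean of 1.71, and its 2 arrays with the mutant in channel 2 were the higher ones. AT1G73120 was even, at 1.5, 1.86, 1.76 and 1.64, with a mean of 1.69 ± 0.16 (SD, n = 4 arrays).

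Among the remaining genes above 1 on every array, AT3G57850 had 1.08, 1.18, 2.08 and 2.31 (mean 1.66) and AT5G57500 had 1.56, 1.80, 1.42 and 1.84 (mean 1.66). The first was spread by 0.62 and the second by 0.20 (SD). AT5G53720 was at 1.36, 1.67, 1.36 and 1.91, with a mean of 1.57, and AT3G54940 had a mean of 1.64. AT4G32090 and AT4G20800 had means of 1.45 and 1.35, and AT3G29010 had 1.30. AT5G35735 was at 1.26, 1.49, 1.05 and 1.24 (mean 1.26) and AT5G11360 at 1.18, 1.02, 1.18 and 1.40 (mean 1.19), the lowest of the 22. Of the 64 genes, 8 lay above the upper quartile of all empty spots on each array, and 23 above that of the 113 empty spots. The 8, all among the 22, were AT4G00910, AT3G12000, AT4G11290, AT5G38900, AT1G72290, AT5G22960, AT3G54940 and AT5G53720.

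A middle group of 26 genes had its lowest array between 0.5 and 1. AT5G11570 had the highest mean of them, 2.23 ± 1.60 (SD, n = 4 arrays), from values of 0.99, 4.20, 0.87 and 2.86. Both high values came from the arrays with the mutant in channel 2. The other 25 had means of 1.36 or lower. AT3G56610 was at 1.36, AT3G47480 at 1.33, and AT1G30795 and AT2G38600 both at 1.27. AT1G30795 had 0.81, 1.57, 0.68 and 2.03, and was also higher on the arrays with the mutant in channel 2. AT3G47480 had 1.45, 1.45, 0.95 and 1.47, so 3 arrays coincided and array 3 was lower. AT2G38600 had 1.48, 1.61, 1.12 and 0.86.

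In the same middle group AT4G36770 had a mean of 1.20, AT4G16240 of 1.17, and AT1G44830, AT1G13470 and AT1G12890 of 1.16. AT2G06960 was at 1.15, AT2G19650 at 1.12 and AT2G32820 at 1.11. Several of these were small but even. AT2G19650 had 1.0, 1.28, 1.07 and 1.12, an SD of 0.12, and AT2G06960 had 0.97, 1.23, 1.34 and 1.06. AT2G32820 was at 1.44, 1.01, 1.29 and 0.71, and AT4G36770 at 1.06, 1.37, 0.70 and 1.67. AT1G13470 had 1.35, 1.68, 0.54 and 1.07. AT1G53070 had 1.30, 1.68, 0.55 and 0.80, with a mean of 1.08.

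The rest of the middle group had means of 1.07 or lower. AT5G62730 was at 1.07, AT5G44570 and AT4G00870 at 1.05, and AT5G55460 and AT5G59360 at 1.04. AT4G00870 was even, with an SD of 0.13. AT5G55460 had 1.34, 1.38, 0.56 and 0.87. AT1G67760 had a mean of 1.03 from 0.80, 0.76, 1.73 and 0.82, with array 3 apart from the others, and AT4G24700 had a mean of 1.02. Together with GLC, CLE21 and LSH9, and the 2 genes of this group nearest the threshold, these make up the 26.

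The last group held 16 genes whose lowest array was under 0.5. AT3G32130 had the highest mean of all 64 genes, 2.71, but its values were 1.54, 5.91, 0.29 and 3.11, an SD of 2.42. Without its highest array its mean was 1.65. AT5G51630 had 0.37, 0.51, 3.67 and 0.14, and without array 3 its mean was 0.34. AT2G31460 had 0.17, 3.49, 0.54 and 0.18, and without array 2 it was at 0.30. AT2G31240 had 0.61, 2.95, 0.028 and 0.46, and without array 2 it was at 0.37. In these last 3 genes a value on 1 array carried the mean past the threshold.

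AT4G27300 differed, because 1 array was low and the other 3 were high, at 1.77, 1.94, 2.10 and 0.36, with a mean of 1.54. Array 4 was also the low one for AT3G25490, at 0.18, with the other 3 arrays between 1.25 and 1.47 and a mean of 1.06. AT4G38410 had a mean of 1.25, AT5G23970 of 1.20 and AT4G13130 of 1.13. AT2G37870 had 0.14, 0.41, 1.04 and 2.94 (mean 1.13), and AT2G31920 had 1.79, 0.46, 0.84 and 1.22 (mean 1.08). AT5G62830 was at 1.12, 2.39, 0.49 and 0.20 (mean 1.05) and AT4G12270 at 1.07, 1.57, 0.10 and 1.39 (mean 1.03). WYR, ECS1 and AT1G59780 complete the group. Of all 64 genes, 37 kept a mean of at least 1 without their highest array and 27 did not.

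At the threshold, AT1G56710 lay just inside, at 0.85, 0.89, 0.99 and 1.32 with a mean of 1.01. AT1G59780 was at 3.18, 0.28, 0.13 and 0.43, also with a mean of 1.01, and AT5G51800 at 0.96, 1.37, 0.80 and 0.87 with a mean of 1.0. Just outside lay AT1G66830 at 1.0 (0.999634 unrounded), AT5G59660 at 0.99 and EC1.5, an egg cell secreted protein gene, at 0.97. AT1G66830 had 0.79, 1.11, 0.93 and 1.16, an SD of 0.17, lower than that of any of the 3 genes just inside. A further 12 genes had a mean of 1 or higher on all 4 arrays but were not above 0 on each, and 9 of them failed on array 3.

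The channel orientations were compared next, since the mean that chose the genes is orthogonal to the difference between orientations, although the demand for a value above 0 on every array bounds that difference. Of the 64 genes, 42 were higher with the mutant in channel 2 and 22 with it in channel 1. Their median difference was 0.17, against 0.0032 for all 24697 genes and probes, for which the share higher in each orientation was not counted. None of the 64 passed limma's threshold for the difference, and none of all genes and probes did (0%). At an unadjusted limma p under 0.05 there were 7 of the 64 (10.9%) and 1725 of all (6.98%). The smallest limma adjusted p was 0.633, and a p that misses the threshold does not show that the orientations were alike. AT3G32130 had the largest difference, 3.60 ± 1.02 (SE, n = 4 arrays), and AT5G11570 had 2.60 ± 0.48. Both orientations reached a mean of at least 1 for 36 genes, 18 did so only with the mutant in channel 2 and 10 only with it in channel 1. These counts were not made for all genes either. None of the counts by orientation is thus shown to be particular to the raised genes.

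**Figure D3:**
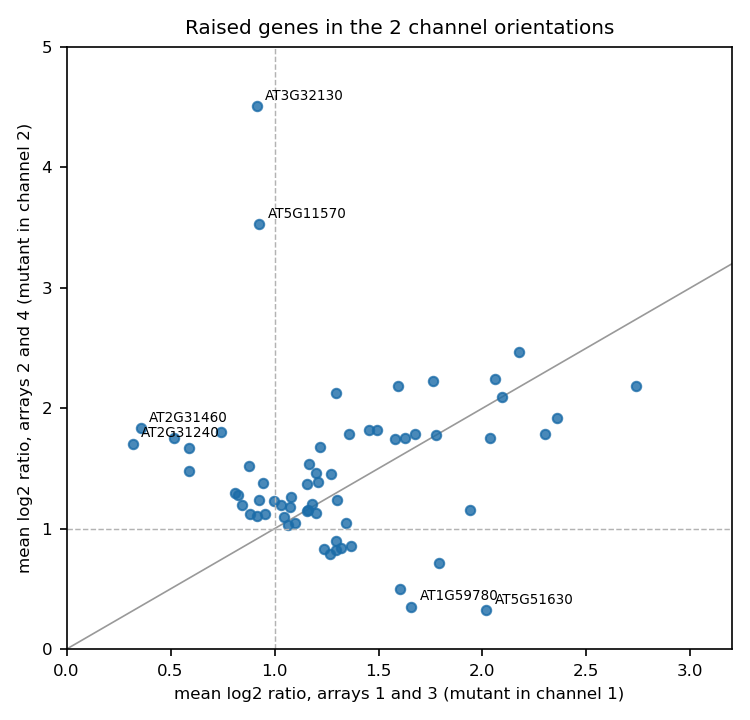
Mean log2 ratio of each of the 64 raised genes on arrays 1 and 3, with the mutant in channel 1 (x axis), and on arrays 2 and 4, with it in channel 2 (y axis). The solid line marks equal values and the dashed lines a log2 ratio of 1. The 6 genes with the largest difference are named, and 42 of 64 lie above the line of equal values. The share of all genes above that line was not counted.

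Probes that list a raised gene together with other genes were not used in choosing the 64, so they could be tested, although they were hybridised with the same RNA on the same arrays. They also detect the other listed genes. Such probes numbered 31, for 29 of the raised genes, and 30 were measured on at least 3 arrays. The untested probe, which lists AT2G19650 with AT2G19660, AT5G37620 and AT2G04680, was measured on array 3 alone, at -3.63. Past limma's threshold, an adjusted p of 0.05, 3 of the 30 were higher and 4 were lower, and 23 were not past it. Among all 7333 tested probes with several genes, 8.26% were higher and 11.2% lower, and over all 25588 genes and probes tested 8.43% and 10.1%. The median of the 30 was 0.18 against 0.099 for all such probes, and 2 of the 30 reached 1. The raised genes beside them had a median of 1.18 on their own probes.

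On 3 of the shared probes the value was higher as well. The probe listing AT5G11360 with AT5G11400 and AT5G11410 had log2 ratios of 2.56, 2.65, 3.69 and 1.86, a mean of 2.69 ± 0.29 (SE, n = 4 arrays, limma adjusted p = 0.00355). This was above the 1.19 of the probe for AT5G11360 alone, and it stayed past the threshold without each array in turn. The probe listing AT1G53070 with AT1G53060 and AT1G53080 was at 1.79, 0.69, 1.11 and 0.56, a mean of 1.04 ± 0.22 (SE, n = 4 arrays, limma adjusted p = 0.0308). The probe listing AT3G47480 with AT5G39670 and AT3G29000 was at 1.22, 1.43, 0.61 and 0.67, a mean of 0.98 ± 0.17 (SE, n = 4 arrays, limma adjusted p = 0.0177). The AT1G53070 probe was not past the threshold with values at the deposited 100-fold limit kept, which were otherwise dropped (limma adjusted p = 0.0557), or without array 1 (limma adjusted p = 0.0720), array 2 (limma adjusted p = 0.0771) or array 3 (limma adjusted p = 0.0875). The AT3G47480 probe was not past it without array 1 (limma adjusted p = 0.0950) or array 2 (limma adjusted p = 0.0622).

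On 4 shared probes, for 3 raised genes, the value was lower. AT5G44690, at 1.90 on its own probe, was listed with AT4G20160 on a probe at -2.23, -3.56, -4.56 and -2.27, with a mean of -3.15 ± 0.42 (SE, n = 4 arrays, limma adjusted p = 0.00734). AT1G21550, at 1.78 on its own, was listed with CML42 and CML43, calmodulin-like calcium sensors. That probe had -1.29, -2.17, -2.14 and -1.67, a mean of -1.82 ± 0.18 (SE, n = 4 arrays, limma adjusted p = 0.00242). AT5G35735, at 1.26 on its own, shared 2 probes with AT5G47530 and AT4G17280. The first of these was at -1.79, -1.06, -2.21 and -1.60, a mean of -1.66 ± 0.19 (SE, n = 4 arrays, limma adjusted p = 0.00480). The second had a mean of -0.76 ± 0.12 (SE, n = 4 arrays, limma adjusted p = 0.0141) and was not past the threshold without array 1 (limma adjusted p = 0.0824) or array 2 (limma adjusted p = 0.0507). These 4 shared probes were below 0 on each array. The own probes were above 0 on each array by the choice of the genes.

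The remaining 23 shared probes lay between -0.62 and 0.66. GLC was listed with SHT and HCT, acyltransferases of phenolic amides and lignin precursors, and with AT5G57840, on a probe at 0.40, 0.43, 0.38 and 0.11 (mean 0.33, limma adjusted p = 0.0773). AT4G36770 shared a probe with UGT72E1, a glycosyltransferase of the phenylpropanoid pathway, which had a mean of 0.40 (limma adjusted p = 0.0523). The 2 probes shared by AT5G57500, GALT1, a galactosyltransferase, and AT3G06440 had means of 0.33 and 0.30. The shared probe of AT4G00920 had a mean of 0.31, that of AT4G27300 0.28 and that of AT3G32130 0.19, far under the means of those genes on their own probes. The lowest was that of AT2G31460, at -0.62 (limma adjusted p = 0.0830), followed by that of AT5G62830 at -0.61 (limma adjusted p = 0.0506).

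**Figure D4:**
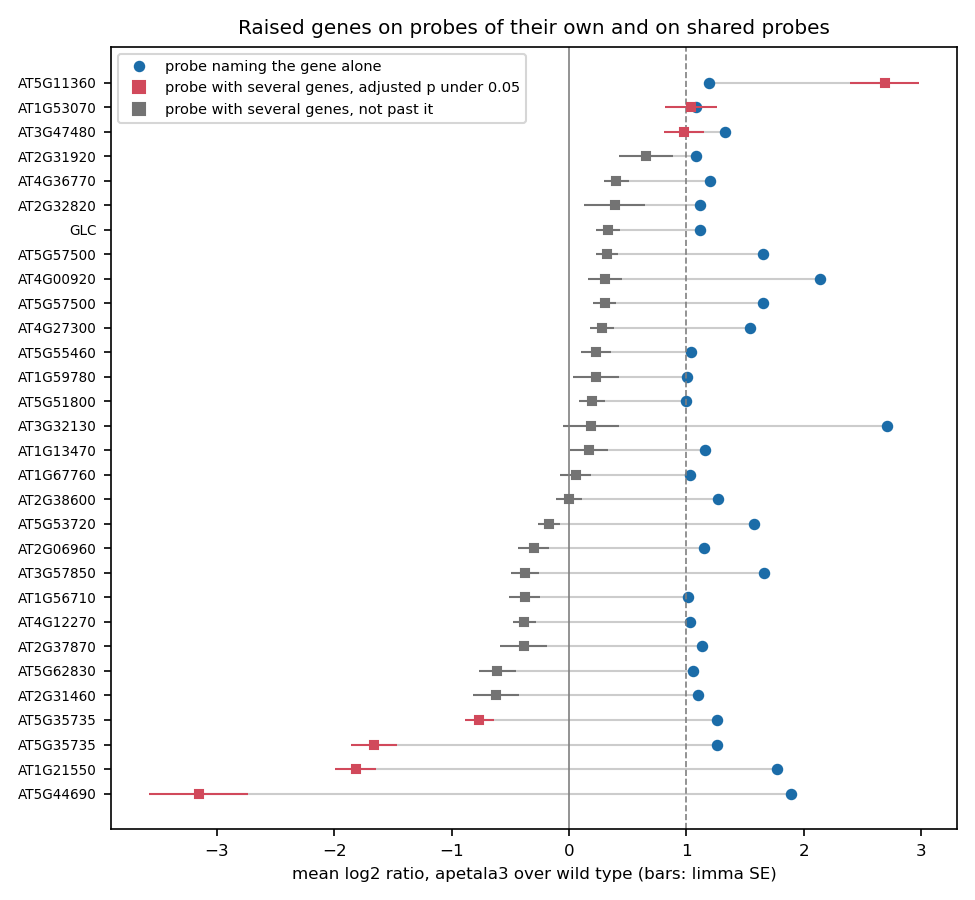
For each raised gene that is also listed on a probe with several genes (rows, 1 per shared probe), the mean log2 ratio of the probe naming it alone (circles) and of the shared probe (squares, with limma's SE, n = 4 arrays) are joined by a line. Squares in red passed limma's threshold (3 higher, 4 lower) and the 23 squares in grey did not.

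Of the genes listed on these shared probes beside a raised gene, 9 were measured by a probe of their own. Past the same threshold, 2 were higher and 2 lower, and 5 were not past it, against 9.12% higher and 8.41% lower among all 5330 tested genes. AT1G53060 had 0.84, 1.57, 0.80 and 0.49, a mean of 0.92 ± 0.19 (SE, n = 4 arrays, limma adjusted p = 0.0277). It is also the direct neighbour of AT1G53070. AT1G53060 was not past the threshold with limit values kept (limma adjusted p = 0.0510) or without array 1 (limma adjusted p = 0.113), array 2 (limma adjusted p = 0.0506) or array 3 (limma adjusted p = 0.0696). AT1G58410, listed with AT1G59780, was at 0.73, 0.74, 0.60 and 0.56, a mean of 0.66 ± 0.093 (SE, n = 4 arrays, limma adjusted p = 0.00895), and was not past it without array 1 (limma adjusted p = 0.0650). SHT, a tapetal acyltransferase listed with GLC, fell by 3.11 on the log2 scale (limma adjusted p = 0.0108), a call lost without array 2 (limma adjusted p = 0.0566). SHT is among the tapetum and pollen wall genes that served to set the direction, so its sign and its count as lower are no evidence. AT2G19660, listed with AT2G19650, fell by 0.77 (limma adjusted p = 0.00581).

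Neighbouring genes were examined because the rule did not use position. Among the protein-coding genes of the reference table (assembly TAIR10.1), AT5G53710 and AT5G53720 are direct neighbours, and AT4G00910 and AT4G00920 are separated by AT4G00905 alone. All 4 belong to the 22 genes above 1 on every array, at means of 2.04, 1.57, 2.46 and 2.14. No other raised genes lay within 5 protein-coding genes of each other. Of the 128 places next to a raised gene, 26 held another gene that was measured by a probe of its own and was not itself among the 64. Of these 26, 6 were higher, 4 were lower and 16 were not past limma's threshold, against 9.12% and 8.41% of all tested genes. Their median was 0.22, and none reached 1. AT1G53060 (higher), AT2G19660 (lower) and AT4G12280 (not past it) were also counted above among the genes listed on shared probes, so these counts are not separate.

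Next to AT1G67760, AT1G67750 was at 0.99, 0.99, 0.69 and 1.04, a mean of 0.93 ± 0.10 (SE, n = 4 arrays, limma adjusted p = 0.00420), and it stayed past the threshold without each array in turn. AT1G53060 was at 0.92, as given above. The other 4 higher neighbours, AT4G24710, AT5G11370, AT2G37880 and AT5G62840, had means of 0.42 to 0.57, and none was past the threshold without array 1, 2 or 3 or with each array centred on its median. The largest fall was that of AT5G64790 next to CLE21, with -3.64, -3.19, -3.75 and -2.38, a mean of -3.24 ± 0.24 (SE, n = 4 arrays, limma adjusted p = 0.00115). AT4G20790 next to AT4G20800 was at -1.58 (limma adjusted p = 0.00430). HEMA3, a glutamyl-tRNA reductase gene of tetrapyrrole synthesis next to AT2G31240, had a mean of -0.96 over the 3 arrays that measured it (limma adjusted p = 0.0254). With its value at the limit on the other array kept the mean was -2.38 and not past the threshold (limma adjusted p = 0.221), and the call was also lost without array 1 (limma adjusted p = 0.135) or array 2 (limma adjusted p = 0.0985). AT5G53700 and AT5G53730, on either side of the pair AT5G53710 and AT5G53720, were at 0.088 and 0.49 and were not past the threshold.

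The raised genes were shorter in span and had fewer transcripts in the reference table. Their median gene span was 1572 bases against 1966.5 for all 5170 genes, and 79.7% had 1 RefSeq transcript against 60.8%. These are descriptions, and no test was made of them.

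Lists of organ genes were set beside the 64. Of 27 genes of the carpel and transmitting tract, 3 were measured by a probe of their own. AT1G72290 is the 1 of them among the 64. It was put on the list with earlier results of these data known, so its place among the 64 is no evidence. The bHLH factor CES, which acts in the transmitting tract, also met the thresholds and is 1 of the 8 genes left out by symbol. It had log2 ratios of 1.75, 2.25, 1.53 and 1.88, with a mean of 1.85 ± 0.30 (SD, n = 4 arrays). As it met the thresholds on these same values, this too is a description and carries no test. INO, which acts in outer integument growth of the ovule, was at 0.20, short of the threshold. Of 24 tapetum and pollen wall genes, 8 were measured, with 0 higher and 6 lower, and of 14 mature pollen genes 3 were measured and 3 were lower, with a median of -2.27. Because the tapetum genes served to set the direction, their sign is no evidence. Of 17 photosynthesis genes, 4 were measured, with means of 0.30 to 0.49. None of these 4 passed limma's threshold in either direction, and 0 had an unadjusted limma p under 0.05. The part of a larger share of carpel or sepal tissue in the values of the 64 genes was not tested.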

How the data were processed

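The authors deposited 1 log2 ratio per spot and array, and per the labels their method is that of an earlier publication. Scanner, background correction and the kind of normalization are not stated in the sources used here. The log2 scale was read from the values, which stopped at 100-fold on either side. The column medians as deposited were -0.11, 0.12, -0.099 and 0.075, so centring stays unknown. As deposited, arrays of opposite orientation correlated at Pearson r of -0.62 to -0.82 over gene probes. The sign of arrays 1 and 3 was turned, and values above 6.6438 in size were dropped.

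Of 26474 gene probes, 5784 name 1 gene, 7497 several and 13193 none. Names came from the platform annotation, updated by gene ID for 5756 probes and by symbol for 28. Of the raised genes, 62 matched by gene ID and 2 by symbol. Probes naming the same gene were averaged. Genes and other probes measured on at least 3 arrays, 25588 in all, were tested against 0 with limma 3.58.1 (lmFit, eBayes) in R 4.3.3, with Benjamini-Hochberg adjustment. The orientation difference was fitted over those on all 4 arrays. The fits were also run on simulated independent normal values. These held no array background or orientation effect, so the run cannot show how the fits behave under either. The raised genes and the gene lists were chosen with earlier results of these data known, AT1G72290 on the carpel list among them. The number of arrays limits the precision. Every raised gene is named. Array values are given for the 15 highest, neighbours among the 64, genes with several or shared probes, listed genes and those nearest the threshold. They are also given for some genes that were uneven across arrays. Partner and neighbour genes were named after their values were seen. Alternatives were limit values kept, centring, empty-spot subtraction, the lowest probe, a higher threshold, array weights and leaving out each array.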

Additional observations from a re-analysis of the deposited data

Results flagged for a closer look

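For 7 of the 64 raised genes a single array stood apart from the rest. Under Dixon's test, chance gives this in about 1 gene in 20, or 3.2 of 64, for normal values that were not selected. The requirement that every array be above 0 and the mean at least 1 shapes these values. The count of 7 against 3.2 therefore cannot show an excess. The share of all genes with such an array was not counted. The far array was high in 4 genes, with 3.67 for AT5G51630 on array 3, 3.49 for AT2G31460 on array 2, 1.73 for AT1G67760 on array 3 and 3.18 for AT1G59780 on array 1. It was low in 3 genes, with 0.95 for AT3G47480 and 1.03 for AT3G29010, both on array 3, and 0.18 for AT3G25490 on array 4.

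Empty spots carry no gene and were used as a background. Of the 113 measured on all 4 arrays, 14 gave a signal that met the thresholds of the raised genes. Their means ran from 1.03 to 2.90. Array 4 was the highest for 9 of the 14 and array 3 the lowest for 11. Their medians were 1.1, 1.47, 0.34 and 3.29 on arrays 1 to 4, against 1.32, 1.5, 1.1 and 1.29 for the 64 genes.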

How the results depend on the processing

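Of the 64 raised genes, 19 still met the thresholds with the empty-spot median of each array subtracted, and the median of the 64 fell to 0.71 from 1.18. With the median of the 113 empty spots measured on all 4 arrays subtracted instead, the count was 19 and the median 0.72. At a mean of 1.5 or higher there were 20. With limit values kept there were 94, among them all 64, and with arrays centred on their medians there were 44. Without 1 array in turn the count was 56 to 90, of which 48 to 59 were among the 64, and the median of the 64 was 1.23 to 1.34. Shared probes called higher numbered 1 to 4 without 1 array, with 1 left without array 1 or array 2, and 7 with array weights. Those called lower numbered 3 to 5 without 1 array and 6 with centring. Neighbours called higher numbered 1 to 5 without 1 array, 3 with limit values kept, 2 with centring and 9 with array weights. Partner genes called higher numbered 0 to 3 without 1 array, 1 with limit values kept and 4 with array weights, and those called lower 1 to 2. Over all genes and probes, 2158 were higher, 287 to 2149 without 1 array, with 287, 438 and 795 without arrays 1, 2 and 3. There were 1430 with limit values kept, 1065 with centring and 3751 with array weights. No raised gene passed the orientation test in limma under any alternative run, with 7 at an unadjusted p under 0.05 over all arrays. The subtraction over the 113 spots and the alternatives for neighbours and partners were chosen after seeing the data. The cause of the shifts was not tested. With 1 probe for 63 genes and no intensities, signal over background cannot be given here.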
